A study of Oryza sativa with 12 samples.

Results

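Polyamine synthesis enzymes were followed in rice (Oryza sativa) roots as the 25 of 182689 unigenes whose best protein hit was from Oryza and whose description named a step of the pathway. A unigene is a cluster of assembled transcripts, so several unigenes can stand for a single gene. The 25 fell into 8 enzymes. S-adenosylmethionine decarboxylase had 8 unigenes, arginine decarboxylase and ornithine decarboxylase 4 each, spermine synthase 3, agmatine deiminase and N-carbamoylputrescine amidase 2 each, and spermidine synthase and thermospermine synthase 1 each. The choice used the descriptions and no measured value.

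Polyamines are small, positively charged molecules that bind nucleic acids and membranes, and plants often accumulate them under salt and drought. Putrescine is made either from arginine, through arginine decarboxylase, agmatine deiminase and N-carbamoylputrescine amidase, or directly from ornithine by ornithine decarboxylase. S-adenosylmethionine decarboxylase then provides the aminopropyl groups that spermidine synthase and spermine synthase add in turn. In plants, transcripts of S-adenosylmethionine decarboxylase carry small upstream reading frames through which polyamines hold back its translation, so transcript level and enzyme level need not move together.

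All roots were wild type by their labels. Each of the 4 groups had 3 libraries: untreated roots, roots given 0.1 mM spermidine, roots given 100 mM NaCl, and roots given both, with 72 hours of treatment. The untreated roots carry no time in the labels, and neither the age of the plants nor separate cultures are stated, so the spread behind each p-value is that between these libraries and may be technical. Values are FPKM, fragments per kilobase of transcript scaled by the reads of the library, which are levels per length. Their depth in reads is unknown, and so no counting intervals are given.

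FPKM summed to between 1312574 and 1371599 in a library, and unigenes with an Oryza hit held 73.5 to 81.6% of it. This share was 80.9 ± 0.592% (SD, n = 3) in NaCl libraries and 76.6 ± 2.40% in untreated ones. Every NaCl library exceeded all libraries of the other groups, and all members are unigenes with an Oryza hit. The root label was checked with 35 unigenes of root genes, whose summed level ran from 9149 to 16827 FPKM. It was lowest in the NaCl libraries, at 9711 ± 490 (SD, n = 3) against 15360 ± 2421 in untreated roots, and no NaCl library reached a library of another group. The 32 unigenes of shoot genes, 16 of which averaged 1 FPKM or more, summed to between 17.6 and 251 FPKM, with the high values in the first spermidine library (138.7) and the third NaCl library (251). None of either marker list was at 0 throughout, and the part of these shifts in the results below was not tested. The root list includes nicotianamine synthase 1, with 3869 ± 1222 FPKM in untreated roots and 1774 ± 110 with NaCl. In bulk RNA, fewer cells of a type, less RNA per cell and a change of these genes themselves cannot be told apart.

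The members together held 987 ± 21.1 FPKM in untreated roots, 949 ± 46.6 with spermidine, 1599 ± 42.1 under NaCl, and 996 ± 143 with spermidine plus NaCl (SD, n = 3 each). The 3 NaCl libraries lay above all other libraries. In untreated roots S-adenosylmethionine decarboxylase was the most abundant enzyme by summed FPKM, at 478 ± 12.9, ahead of arginine decarboxylase at 194 ± 18.2. Spermine synthase at 106 ± 3.45, N-carbamoylputrescine amidase at 98.6 ± 0.961 and spermidine synthase at 85.8 ± 6.11 came next, without overlap between neighbours in this order. Thermospermine synthase had 11.5 ± 2.38, agmatine deiminase 7.74 ± 0.388 and ornithine decarboxylase 6.27 ± 2.40, and the libraries of the last pair overlapped.

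**Figure D1:**
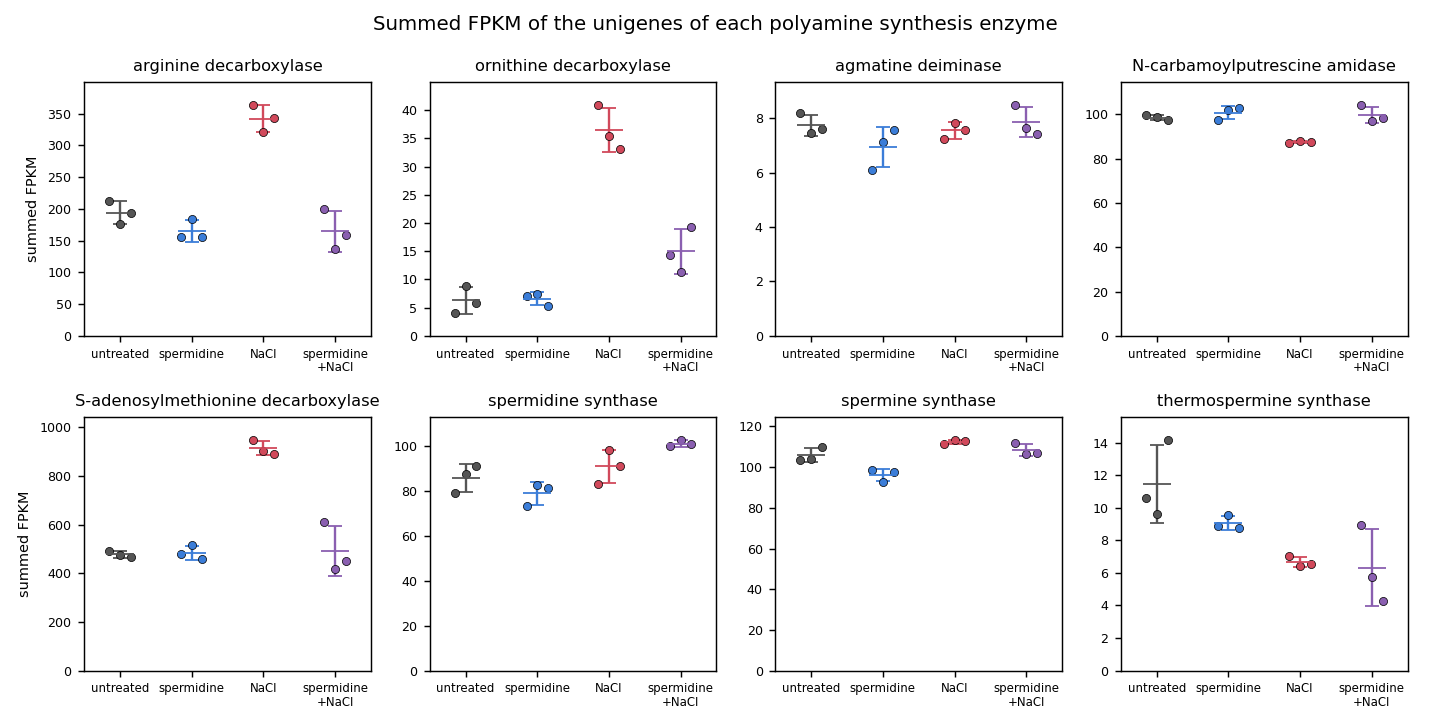
Summed FPKM of the unigenes of each enzyme in the 4 groups, with a point for each library, a dash for the group mean and bars for the SD over 3 libraries; each panel has its own axis, starting at 0. S-adenosylmethionine decarboxylase, arginine decarboxylase and ornithine decarboxylase are highest in the 3 NaCl libraries, while spermidine synthase and spermine synthase stay within 73.1 to 113 FPKM.

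Of the 25 members 19 reached the mean of 1 FPKM that the test required, and 1 of these, the unigene ODC-c of ornithine decarboxylase, reached it only through its NaCl libraries. ODC-c had to differ with NaCl, so its values are described and its tests in contrasts with the NaCl group are not used. Under NaCl, 7 of the other 18 rose and 3 fell, with a median log2 change of 0.14 against -0.13 over all tested unigenes. Among all 65836 unigenes tested, 6586 or 10% were called higher and 12.9% lower in this comparison. Among the 41491 of them with an Oryza hit the shares were 12.4% and 14.7%. With libraries rescaled by median ratios the balance over all unigenes turned, from 6586 higher and 8497 lower to 7956 higher and 5900 lower. A call is an adjusted p below 0.05 in limma on log2(FPKM + 1), with Benjamini-Hochberg adjustment over all tested unigenes. Every rise belonged to a decarboxylase: 2 unigenes of arginine decarboxylase, 2 of ornithine decarboxylase and 3 of S-adenosylmethionine decarboxylase. Of the last 3, 1 (SAMDC-e below) had a Pfam hit to the leader peptide only. It shared its best protein hit with a unigene that fell.

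Arginine decarboxylase, which starts the route from arginine, was carried by a pair of unigenes whose best Swissprot hit was Arginine decarboxylase 1 of rice. They are called ADC1-a (Cluster-52034.73530) and ADC1-b (Cluster-52034.73606) here. ADC1-a had 105.80, 91.67 and 94.91 FPKM in untreated roots, 79.35, 97.37 and 82.47 with spermidine, 190.22, 174.56 and 185.86 under NaCl, and 102.07, 72.76 and 87.43 with both. The NaCl libraries stood above the other 9 without overlap, and the remaining 3 groups overlapped each other. The mean was 1.88 times that of untreated roots, a log2 change of 0.91 ± 0.12 (SE; limma adjusted p = 4.82e-04).

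ADC1-b had 105.08, 81.44 and 96.48 FPKM in untreated roots, 75.04, 86.42 and 70.71 with spermidine, 171.64, 144.43 and 155.10 under NaCl, and 96.80, 61.49 and 69.81 with both. It followed ADC1-a closely, with a ratio of ADC1-a to ADC1-b between 0.984 and 1.25 in the 12 libraries, and the pair may be pieces or alleles of the same gene that share reads. Its log2 change with NaCl was 0.73 ± 0.16 (limma adjusted p = 0.00837). The sum over arginine decarboxylase was 342.5 ± 21.0 FPKM with NaCl, 1.77 times its mean in untreated roots. FPKM is per length, so 2 pieces of a gene would count it more than once, and the sum depends on how reads fell between them. A further unigene, described as arginine decarboxylase 2 (ADC2), had group means from 0.987 to 1.38 FPKM and passed the test in no comparison.

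**Figure D2:**
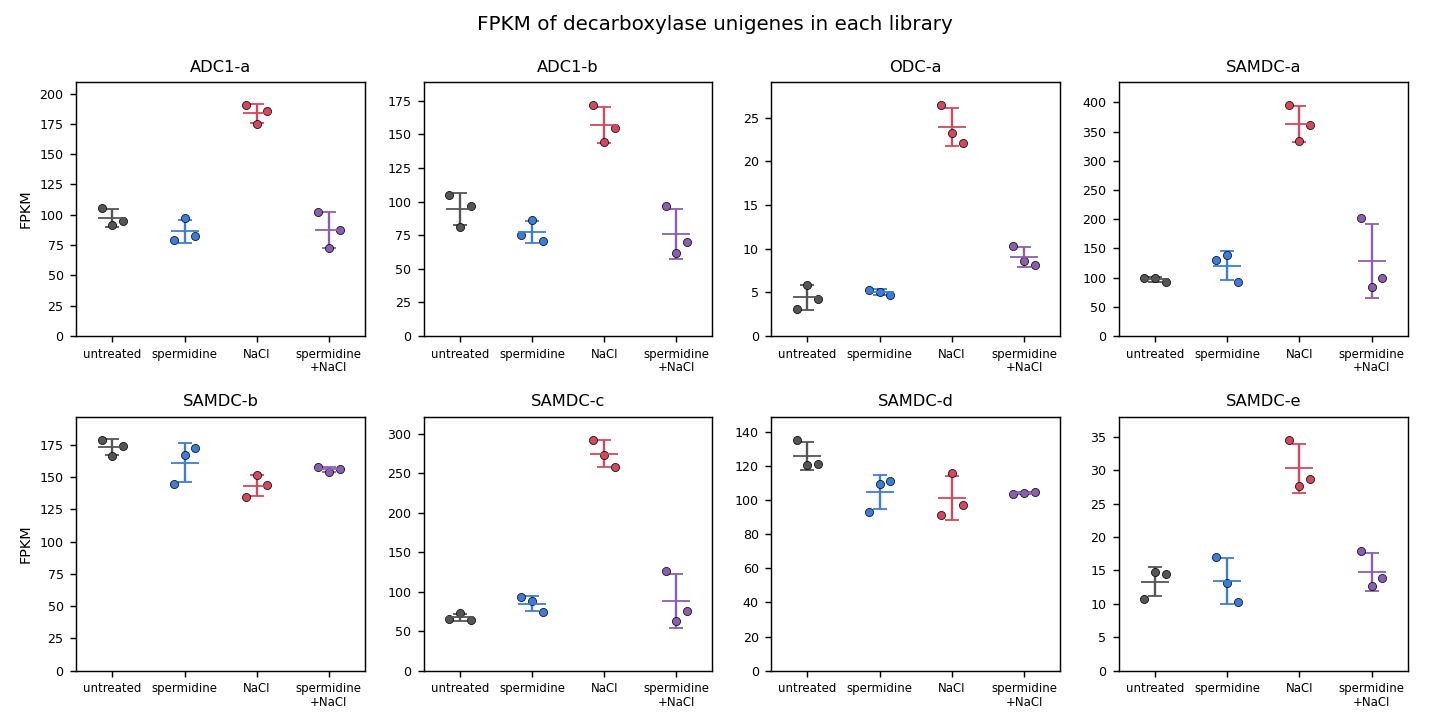
FPKM of the abundant decarboxylase unigenes in every library, with a dash for the group mean and bars for the SD over 3 libraries, on linear axes that start at 0 and differ between panels. Points of the NaCl group lie above those of every other group for ADC1-a, ODC-a, SAMDC-a and SAMDC-c.

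Ornithine decarboxylase, the direct route to putrescine, had the lowest mean of the 8 enzymes in untreated roots and the largest ratio with NaCl, among member unigenes. Its main unigenes all hit the same rice protein, Os09g0543400, and are called ODC-a (Cluster-52034.45460), ODC-b (Cluster-52034.80871) and ODC-c (Cluster-52034.99278). ODC-a had 3.09, 5.88 and 4.25 FPKM in untreated roots, 5.29, 5.08 and 4.66 with spermidine, 26.41, 23.24 and 22.13 under NaCl, and 10.34, 8.62 and 8.15 with both. The groups with NaCl lay apart from those without it and from each other. The rise with NaCl was 5.43-fold in the means, a log2 change of 2.23 ± 0.17 (limma adjusted p = 1.69e-05).

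ODC-b had 1, 1.71 and 1.33 FPKM in untreated roots, 1.64, 1.13 and 0.29 with spermidine, 5.12, 5.97 and 5.13 under NaCl, and 2.97, 1.39 and 0.87 with both. ODC-c had 0, 1.25 and 0.31 FPKM in untreated roots, 0.19, 1.16 and 0.41 with spermidine, 8, 6.17 and 5.90 under NaCl, and 0.95, 0 and 1.76 with both. Both low unigenes were highest in the 3 NaCl libraries, without overlap. The log2 change of ODC-b with NaCl, 1.46 ± 0.32, was called (limma adjusted p = 0.00767), on a scale that understates changes of low unigenes. ODC-c averaged 6.69 FPKM with NaCl, against 0.52 in untreated roots, 0.587 with spermidine and 0.903 with both treatments, and entered the test only through NaCl.

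Summed over its 4 unigenes, ornithine decarboxylase went from a mean of 6.27 ± 2.40 FPKM in untreated roots to 36.5 ± 3.95 with NaCl, 5.81 times as much. With unigenes of any hit added, the means were 32.5 ± 13.7 and 74.7 ± 3.73 FPKM, a ratio of 2.30. Arginine decarboxylase stayed the more abundant of the routes to putrescine. The ratio of their summed FPKM had a median of 32.9 in untreated libraries, with a range of 19.9 to 51.8, and of 9.08 in NaCl libraries, with a range of 8.89 to 10.4. These ranges did not overlap. With any hit the ratio was 4.05 to 11.3 in untreated and 4.43 to 4.73 in NaCl libraries, and the ranges overlapped.

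S-adenosylmethionine decarboxylase (Swissprot: S-adenosylmethionine decarboxylase proenzyme, since the protein cuts itself to become active) had 5 tested unigenes, called SAMDC-a to SAMDC-e, and they did not move alike. SAMDC-a (Cluster-52034.76799) had 98.92, 99.39 and 91.63 FPKM in untreated roots, 129.98, 138.15 and 91.73 with spermidine, 394.91, 333.22 and 361.96 under NaCl, and 201.73, 84.05 and 99.71 with both. The NaCl libraries stood far above the rest, and the first library with both treatments was the highest of the others. The rise with NaCl was 3.76-fold in the means, a log2 change of 1.90 ± 0.27 (limma adjusted p = 0.000725).

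SAMDC-c (Cluster-52034.83884) had 65.82, 72.87 and 63.70 FPKM in untreated roots, 92.89, 88.17 and 73.80 with spermidine, 291.73, 273.51 and 257.64 under NaCl, and 126.52, 62.96 and 75.05 with both. It followed SAMDC-a, with a ratio of SAMDC-a to SAMDC-c between 1.22 and 1.59 in all 12 libraries. The rise with NaCl was 4.07-fold, a log2 change of 2.01 ± 0.21 (limma adjusted p = 9.35e-05). How reads were shared between the pair was not tested. If the pair are pieces of the same gene, that gene counts more than once in the summed level, the rank and the shares of this enzyme.

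SAMDC-e (Cluster-52034.78396), whose Pfam hit is the leader peptide of the enzyme and not the enzyme itself, had 10.77, 14.69 and 14.45 FPKM in untreated roots, 17.03, 13.08 and 10.22 with spermidine, 34.48, 27.68 and 28.70 under NaCl, and 17.97, 12.59 and 13.80 with both. Its NaCl libraries did not overlap with the rest either. The log2 change with NaCl was 1.14 ± 0.20 (limma adjusted p = 0.0021). The best protein hit of SAMDC-e, OsI_16495, is also that of SAMDC-b, described next, which was called lower with NaCl. Whether SAMDC-e and SAMDC-b come from the same gene was not tested.

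The other abundant pair went the other way or stayed level. SAMDC-b (Cluster-52034.77631) had 178.54, 166.58 and 174.25 FPKM in untreated roots, 144.33, 166.96 and 172.24 with spermidine, 134.62, 151.47 and 143.88 under NaCl, and 157.42, 153.93 and 156.52 with both. It was the most abundant of the 5 in untreated roots, and its NaCl libraries lay below the untreated ones (log2 change -0.27 ± 0.08, limma adjusted p = 0.0281). This fall was not called after rescaling the libraries by median ratios (-0.13, limma adjusted p = 0.205), nor without the first or the third untreated library or the first or the third NaCl library (limma adjusted p up to 0.105). The call held in 14 of 21 alternatives.

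SAMDC-d (Cluster-52034.57088) had 135.05, 120.70 and 121.05 FPKM in untreated roots, 93.02, 109.62 and 111.39 with spermidine, 91.20, 115.88 and 97.01 under NaCl, and 103.68, 103.87 and 104.89 with both. The untreated libraries were the highest of all, but no comparison passed the test. With NaCl the log2 difference was -0.31 ± 0.10 (limma adjusted p = 0.0501), and 6 of 21 alternatives called it lower. They were quantile normalization (limma adjusted p = 0.00989), rice-hit unigenes only (0.0153), a filter of 5 FPKM (0.0358), a pseudocount of 0.1 (0.0495), and leaving out the first spermidine library (0.0385) or the second NaCl library (0.014).

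The make-up of S-adenosylmethionine decarboxylase therefore differed between groups. SAMDC-a and SAMDC-c held 34.4 ± 1.65% of its FPKM in untreated roots and 69.7 ± 2.70% with NaCl, while SAMDC-b and SAMDC-d went from 62.5 ± 1.78% to 26.8 ± 2.87%. With both treatments the shares were 42.6 ± 9.89% and 54.2 ± 10.02%. The sum over all 8 unigenes was 478 ± 12.9 FPKM in untreated roots and 915 ± 29.0 with NaCl, a ratio of 1.92.

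**Figure D3:**
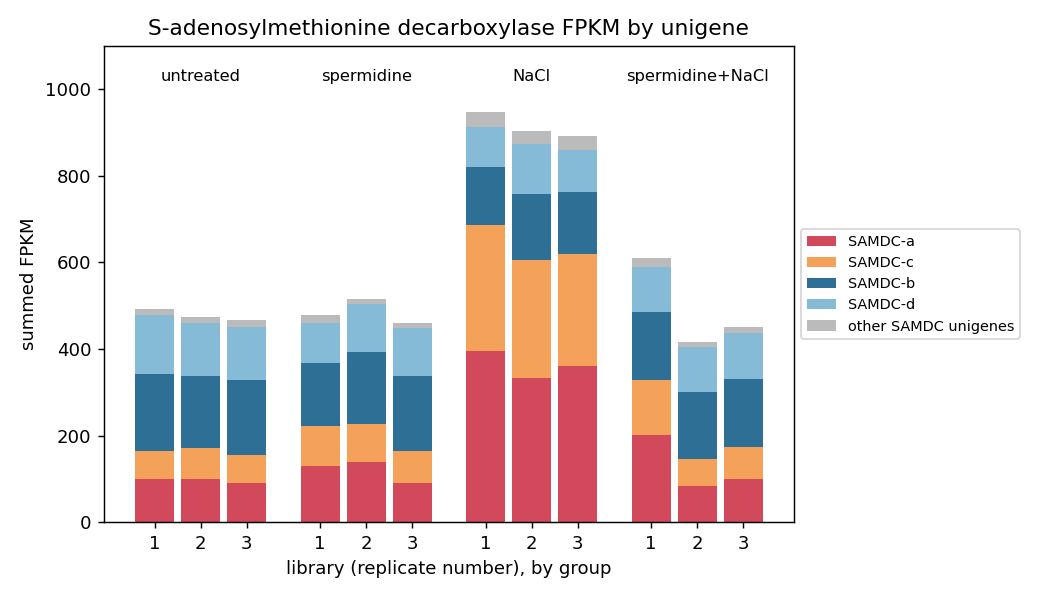
FPKM of S-adenosylmethionine decarboxylase in each of the 12 libraries, stacked by unigene, on a linear axis from 0. SAMDC-a and SAMDC-c make up 69.7% on average in NaCl libraries and 34.4% in untreated ones, and the bar of the first library with both treatments, at 609 FPKM, lies between those of the NaCl and the untreated groups.

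No unigene of an enzyme further along either route passed the test as a rise with NaCl. N-carbamoylputrescine amidase, which releases putrescine at the end of the arginine route, had 1 tested unigene (NCPA-a, Cluster-52034.63458), with 98.76, 98.16 and 96.89 FPKM in untreated roots, 96.75, 101.30 and 102.83 with spermidine, 86.57, 86.98 and 86.72 under NaCl, and 103.80, 97.01 and 98.05 with both. Its NaCl libraries were the lowest and lay close together. The fall was small, a log2 change of -0.17 ± 0.06 (limma adjusted p = 0.0485). It was -0.03 (limma adjusted p = 0.776) with median-ratio scaling, and leaving out any library but the first with both treatments ended the call. The call held in 6 of 21 alternatives. The 2 unigenes described as agmatine deiminase, the step before it, have a Pfam hit to peptidyl-arginine deiminase but a KEGG entry for a pre-rRNA-processing protein, so their identity is uncertain. They summed to group means of 6.93 to 7.85 FPKM, and neither passed the test in any comparison.

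Spermidine synthase, which makes spermidine from putrescine, was the single unigene SPDS1 (Cluster-52034.68891), with the Swissprot name Spermidine synthase 1. It had 79.08, 87.37 and 91.00 FPKM in untreated roots, 73.12, 82.64 and 81.16 with spermidine, 83.35, 98.27 and 91.37 under NaCl, and 100.07, 102.67 and 100.77 with both. Untreated and NaCl libraries overlapped, and the libraries with both treatments were the highest. The log2 difference with NaCl was 0.08 ± 0.08 (limma adjusted p = 0.545). It was called as a rise only with median-ratio scaling (limma adjusted p = 0.0444).

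The 3 unigenes of spermine synthase, which turns spermidine into spermine, also missed the threshold with NaCl. Their class follows the Swissprot name, while the KEGG entry of all 3 reads spermidine synthase. SPMS-a (Cluster-52034.59931) had 40.79, 38.28 and 38.98 FPKM in untreated roots, 37.53, 35.35 and 39.79 with spermidine, 44.94, 46.88 and 44.38 under NaCl, and 46.33, 43.78 and 43.82 with both. Its groups with and without NaCl did not overlap, yet the log2 difference of 0.20 ± 0.07 between NaCl and untreated roots had a limma adjusted p of 0.0596. It was called as a rise in 5 of 21 alternatives, which were median-ratio scaling (0.34, limma adjusted p = 0.00607), only the 2 groups in the fit (0.0272), a filter of 5 FPKM (0.0359), a pseudocount of 0.1 (0.0498) and leaving out the second spermidine library (0.0499).

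SPMS-b (Cluster-52034.78084) had 36.15, 40.06 and 44.67 FPKM in untreated roots, 35.31, 36.09 and 34.69 with spermidine, 39.43, 35.67 and 41.36 under NaCl, and 33.58, 34.23 and 34.83 with both. SPMS-c (Cluster-52034.59930) had 26.55, 25.72 and 26.08 FPKM in untreated roots, 25.53, 21.49 and 22.92 with spermidine, 27.07, 30.71 and 27.14 under NaCl, and 32.07, 28.21 and 28.46 with both. Neither passed the test between NaCl and untreated roots (limma adjusted p = 0.763 and 0.446). The Pfam hit of SPMS-b is to a tetramerisation domain of spermidine synthase only. The ratio of SPMS-a to SPMS-c was 1.45 to 1.74 in all libraries, and this pair too may be pieces of a gene that the sum counts more than once. The median ratio of summed S-adenosylmethionine decarboxylase to spermidine synthase was 5.44 in untreated libraries and 9.77 in NaCl libraries, with no overlap.

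Thermospermine synthase makes an isomer of spermine that in Arabidopsis restrains xylem formation, and matched through the words spermine synthase. Its unigene (ACL5, Cluster-52034.62062) had 10.61, 9.63 and 14.15 FPKM in untreated roots, 8.90, 9.58 and 8.77 with spermidine, 7.01, 6.44 and 6.55 under NaCl, and 8.91, 5.73 and 4.29 with both. The NaCl libraries lay below the untreated ones, a log2 change of -0.69 ± 0.21 (limma adjusted p = 0.0375). The call was lost with median-ratio scaling (limma adjusted p = 0.0905). Leaving out the first or the third untreated library, any spermidine or NaCl library or the second library with both treatments also ended it (limma adjusted p up to 0.131). The call held in 8 of 21 alternatives.

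**Figure D4:**
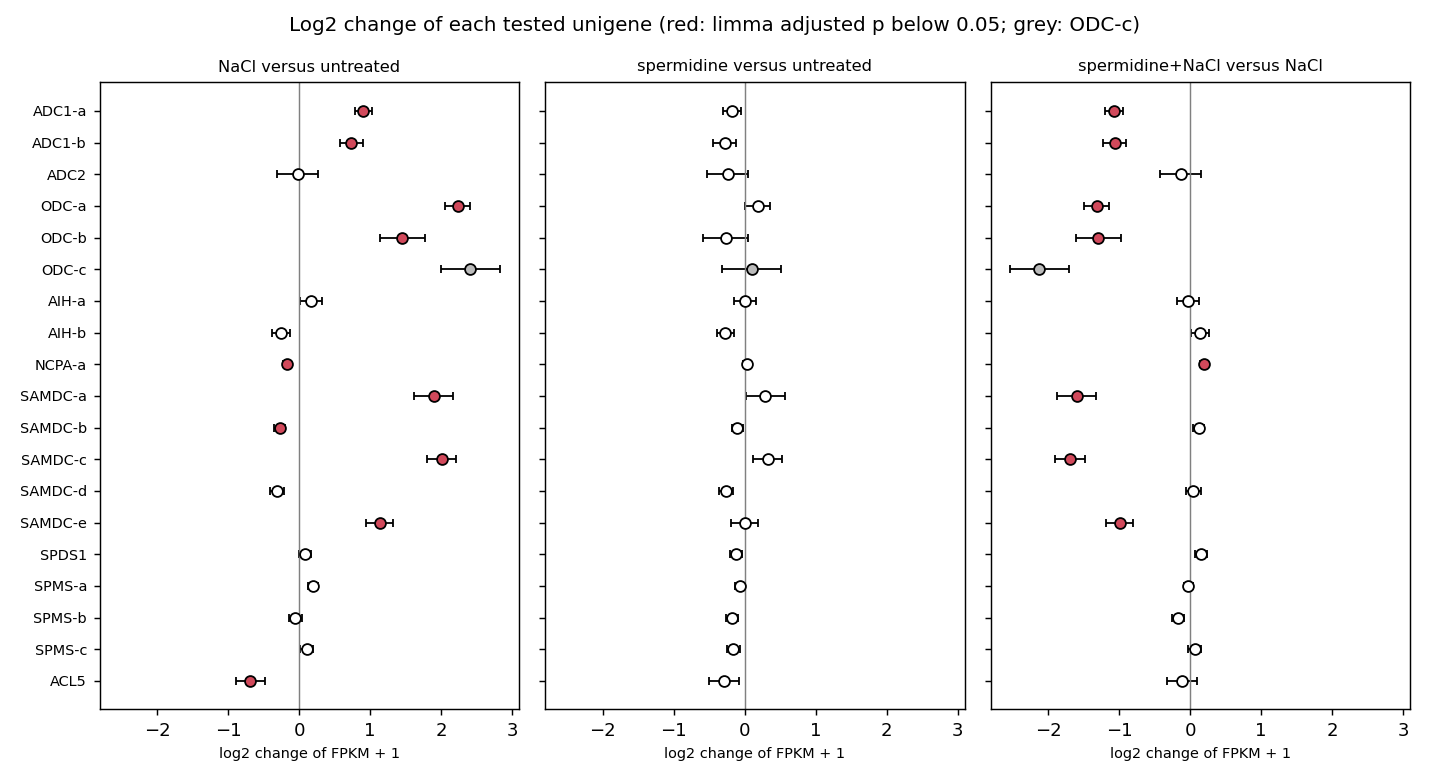
Log2 changes of the tested members on the log2(FPKM + 1) scale with bars of SE, for NaCl against untreated, spermidine against untreated, and spermidine plus NaCl against NaCl; red points passed the test and grey marks ODC-c, whose tests in contrasts with the NaCl group are not used. The decarboxylase unigenes that lie to the right with NaCl lie to the left when spermidine was given with it, and no point is red for spermidine alone.

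Limma called 0 of the 19 tested members with spermidine alone at an adjusted p below 0.05, in a comparison in which 2.55% of all tested unigenes were called. Most of those calls had no Oryza hit, and among rice-hit unigenes, to which all members belong, 0.294% were called. At an unadjusted p below 0.05 there were 2, SAMDC-d and a unigene of agmatine deiminase. Log2 differences ran from -0.29 to 0.32, with SE from 0.06 to 0.42, and the lowest adjusted p was 0.285, of SAMDC-d (-0.26 ± 0.10). The largest was that of SAMDC-c, at 0.32 ± 0.21 (limma adjusted p = 0.597), although its 3 spermidine libraries all lay above the untreated ones. Summed arginine decarboxylase was 165 ± 16.9 FPKM with spermidine and 194 ± 18.2 in untreated roots, and the libraries overlapped. Summed spermine synthase was lower with spermidine without overlap, at 96.2 ± 2.90 against 106 ± 3.45 FPKM. So was thermospermine synthase, at 9.08 ± 0.435 against 11.5 ± 2.38. The spermidine libraries of SAMDC-d, SPMS-b, SPMS-c, ACL5 and a unigene of agmatine deiminase all lay below the untreated ones, and none of these was called. For SPMS-b the highest spermidine library had 36.09 FPKM and the lowest untreated one 36.15. How many of all tested unigenes separate without overlap in this comparison was not counted. These separations are therefore a description and no result about the members.

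When spermidine was given with NaCl, the 7 unigenes called higher with NaCl were all lower than with NaCl alone, and 1 further member was higher. Among all tested unigenes 7.18% were called lower and 8.63% higher in this comparison, and among rice-hit unigenes 8.85% and 10.5%. With median-ratio scaling the balance over all unigenes turned, from 4724 lower and 5679 higher to 5555 lower and 2717 higher. This comparison shares the NaCl libraries with that of NaCl with untreated roots, so high NaCl libraries weigh on both. The 7 were picked by their high NaCl libraries, so the shares over all unigenes, not so picked, are no like measure. The share called lower among all unigenes called higher with NaCl was not computed. The median log2 change of the 18 members was -0.13, against 0.14 over all tested unigenes.

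Arginine decarboxylase fell by 1.07 ± 0.12 on the log2 scale for ADC1-a (limma adjusted p = 0.000293) and fell by 1.06 ± 0.16 for ADC1-b (limma adjusted p = 0.00164). The summed level with both treatments, 165 ± 32.4 FPKM, was 0.482 times that with NaCl. For ornithine decarboxylase the log2 changes were -1.31 ± 0.17 for ODC-a (limma adjusted p = 0.000693) and -1.29 ± 0.32 for ODC-b (limma adjusted p = 0.0205). The summed level of 14.96 ± 4.07 FPKM was 0.41 times that with NaCl. The call of ODC-b was lost without any NaCl library, or without the second or the third library with both treatments (limma adjusted p up to 0.0747). It held in 13 of 20 alternatives.

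SAMDC-a fell by 1.60 ± 0.27 on the log2 scale (limma adjusted p = 0.00326), SAMDC-c fell by 1.69 ± 0.21 (limma adjusted p = 0.000457) and SAMDC-e fell by 0.995 ± 0.196 (limma adjusted p = 0.00687). The summed level of the enzyme, 492 ± 103 FPKM, was 0.538 times that with NaCl. The first library with both treatments stood apart from its group, with 609 FPKM of this enzyme against 417 and 450 in the other two, and with 200.15 FPKM of arginine decarboxylase against 136.25 and 158.69. Even in that library the values of ADC1-a, SAMDC-a, SAMDC-c and SAMDC-e were below those of every NaCl library. Without it 8 members were called in this comparison, against 9 with it, with ODC-c in both counts. Over all 66547 unigenes tested without it, 5610 were called higher and 5243 lower.

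The member that was higher with both treatments than with NaCl was NCPA-a, by 0.20 ± 0.06 on the log2 scale (limma adjusted p = 0.0383). With median-ratio scaling the value was 0.02 (limma adjusted p = 0.909), and leaving out any untreated or NaCl library, or any library with both treatments, ended the call. It held in 8 of 21 alternatives. SAMDC-b, SAMDC-d, the synthases and ACL5 passed no test in this comparison.

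The change with spermidine under NaCl was then compared with the change with spermidine without NaCl, the interaction of the treatments. Limma called it below 0 for 5 members other than ODC-c and above 0 for 0 of them. Of all 65836 unigenes tested, 4400 or 6.68% were called below 0 and 2752 above. Among rice-hit unigenes 6.78% were below and 5.33% above. With median-ratio scaling 5006 of all unigenes were below and 1403 above. At an unadjusted p below 0.05, SPDS1 and a unigene of agmatine deiminase were above 0. The interaction was -2.01 ± 0.30 for SAMDC-c (limma adjusted p = 0.00219), -1.88 ± 0.39 for SAMDC-a (limma adjusted p = 0.0123), -1.50 ± 0.25 for ODC-a (limma adjusted p = 0.00396) and -0.90 ± 0.17 for ADC1-a (limma adjusted p = 0.00922), all on the log2 scale. ADC1-b, at -0.78 ± 0.23, missed the threshold (limma adjusted p = 0.0566), and passed it without the first library with both treatments (limma adjusted p = 0.00754).

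The interaction of SAMDC-e (-0.99 ± 0.28, limma adjusted p = 0.046) passed narrowly. Its call was lost without any untreated or NaCl library, the first or second spermidine library, or the second or the third library with both treatments. It held in 5 of 20 alternatives.

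Roots with both treatments were also compared with untreated roots. Of the members only ODC-a passed, at 2.05 times the untreated mean (log2 change 0.92 ± 0.17, limma adjusted p = 0.0155), and 5.37% of all tested unigenes were called. ADC1-a, ADC1-b, SAMDC-a, SAMDC-c and SAMDC-e passed no test, and their libraries with both treatments overlapped with the untreated ones. ACL5 had a log2 difference of -0.80 ± 0.21 (limma adjusted p = 0.0537).

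Against spermidine alone, roots with both treatments had higher ODC-a (0.74 ± 0.17, limma adjusted p = 0.0315) and SPDS1 (0.36 ± 0.08, limma adjusted p = 0.0296), and 6.93% of all tested unigenes were called. The mean of SPDS1 was 1.28 times that with spermidine, with all 3 libraries above. Leaving out any library of either group ended the call of ODC-a (limma adjusted p up to 0.103). For SPDS1 the first or the third spermidine library, or any library with both treatments, did so (limma adjusted p up to 0.12). Each of these calls held in 12 of 21 alternatives.

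The remaining 6 members, with means of 0.228 to 0.928 FPKM, were not tested. They were 3 unigenes of S-adenosylmethionine decarboxylase and 1 each of arginine decarboxylase, ornithine decarboxylase and N-carbamoylputrescine amidase, and their values in a library ran from 0 to 8.55 FPKM. The highest was that of the fourth unigene of ornithine decarboxylase in the third library with both treatments.

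Around the enzymes, 187 further rice-hit unigenes of polyamine-related processes were listed by description, and 139 could be tested. With NaCl 24 of them rose and 48 fell, or 29 and 34 with median-ratio scaling, with a median log2 change of -0.25 against -0.13 over all tested unigenes. With both treatments against NaCl 31 rose and 15 fell, or 16 and 16 with median-ratio scaling, with a median of 0.27 against 0.14. The shares over all rice-hit unigenes tested were 12.4% higher and 14.7% lower with NaCl, and 10.5% higher and 8.85% lower with both treatments against NaCl. The counts of each list below stand against these where no other scaling is named. Counts with median-ratio scaling stand against those of all 65710 unigenes tested with it. These were 7956 higher and 5900 lower with NaCl, and 2717 higher and 5555 lower with both treatments against NaCl. With spermidine alone limma called 0 of them, and 4 were higher and 9 lower at an unadjusted p below 0.05. Rescaling by median ratios moved the median of all tested unigenes from -0.13 to -0.02 for NaCl and from 0.14 to 0 for spermidine under NaCl.

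Methionine salvage recycles the methylthioadenosine that spermidine and spermine synthesis leave behind. With NaCl limma called 9 of its 25 tested unigenes lower and 0 higher (median -0.54), with 2 higher at an unadjusted p below 0.05. With both treatments against NaCl 8 rose (median 0.51). After median-ratio scaling the counts were 7 lower and 2 higher with NaCl, and 4 higher for the second comparison. Its most abundant called unigene, 1,2-dihydroxy-3-keto-5-methylthiopentene dioxygenase 2 (Cluster-52034.63278), had 228 ± 41.0 FPKM in untreated roots, 142 ± 2.99 with NaCl and 220.5 ± 50.5 with both. Its fall with NaCl (limma adjusted p = 0.0153) was not called with median-ratio scaling (limma adjusted p = 0.0512) or without the second or the third untreated library. Its rise with both treatments against NaCl (limma adjusted p = 0.0328) was lost with median-ratio scaling (limma adjusted p = 0.143), without any NaCl library and without the first or the third library with both treatments. No filter, no variance trend and only the 2 groups in the fit also ended it.

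Conjugation, which ties polyamines to hydroxycinnamic acids, had 7 falls and 1 rise among 13 tested unigenes with NaCl, and the same counts with median-ratio scaling. Putrescine hydroxycinnamoyltransferase 1 (Cluster-52034.67839) had 122 ± 3.48 FPKM in untreated roots, 80.7 ± 13.5 with NaCl and 103 ± 1.72 with both. The fall with NaCl (limma adjusted p = 0.00238) was called under each of 21 alternatives. The difference between both treatments and NaCl (0.37 on the log2 scale, limma adjusted p = 0.0436) was not called in 15 of 21, among them median-ratio scaling (limma adjusted p = 0.438) and, one at a time, leaving out any untreated library, any library with both treatments, the second or the third spermidine library, or the second or the third NaCl library.

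Of the processes that use spermidine, 5 of 11 unigenes fell with NaCl, and 2 with median-ratio scaling. Eukaryotic translation initiation factor 5A-2 (Cluster-52034.76865), which carries hypusine made from spermidine, had 382 ± 21.6 FPKM in untreated roots and 311 ± 10.2 with NaCl. The fall (limma adjusted p = 0.0182) was lost with median-ratio scaling (limma adjusted p = 0.242), with no variance trend, and without the first or the third untreated library or the third NaCl library.

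Precursor supply had 5 rises and 3 falls among 16 tested unigenes with NaCl. S-adenosylmethionine synthase 2 (Cluster-52034.55810), which makes the substrate of S-adenosylmethionine decarboxylase, was among the falls, with 1891 ± 341 FPKM in untreated roots, 1244 ± 98.95 with NaCl and 1922 ± 341 with both. The fall with NaCl (limma adjusted p = 0.016) was lost without the second or the third untreated library or the first NaCl library. Quantile normalization and only the 2 groups in the fit also ended it. The rise with both treatments against NaCl (limma adjusted p = 0.0189) was lost with median-ratio scaling (limma adjusted p = 0.0754), without the first or the third NaCl library and without the third library with both treatments. Quantile normalization and only the 2 groups in the fit ended this call too.

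Competing uses of S-adenosylmethionine had 10 rises and 13 falls among 42 with NaCl, and 12 rises and 8 falls with median-ratio scaling. Nicotianamine synthase 1 (Cluster-52034.77540), which uses S-adenosylmethionine to make a metal chelator and is also in the root marker list, had 3869 ± 1222 FPKM in untreated roots and 1774 ± 110 with NaCl. The fall (limma adjusted p = 0.0152) was lost without the second or the third untreated library and with only the 2 groups in the fit (limma adjusted p up to 0.244).

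Polyamine oxidation had 7 rises and 7 falls among 23 tested unigenes with NaCl. Probable polyamine oxidase 4 (Cluster-52034.74870) was among the falls, with 363 ± 29.3 FPKM in untreated roots, 220 ± 9.99 with NaCl and 267 ± 24.6 with both. The fall with NaCl (limma adjusted p = 0.000504) was called under each of 21 alternatives. With both treatments it was also lower than in untreated roots (limma adjusted p = 0.0291). This call was lost without the first or the third untreated library or the second library with both treatments. It was also lost with no variance trend and with only the 2 groups in the fit.

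Transport had 4 falls and 1 rise among 9 with NaCl, and 2 falls and 1 rise with median-ratio scaling. The probable polyamine transporter At1g31830 (Cluster-52034.66070) had 58.0 ± 1.78 FPKM in untreated roots, 45.8 ± 1.70 with NaCl and 54.5 ± 1.77 with both. The fall with NaCl (limma adjusted p = 0.00748) was lost with median-ratio scaling (limma adjusted p = 0.12).

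The rice-hit unigenes with a named protein whose levels were most like those of the most abundant member of each main enzyme were found by Pearson's r of log2(FPKM + 1) over the 12 libraries, among 11529 candidates. The libraries share their groups, so r mostly reflects the order of the 4 groups. For ADC1-a they were Myb-related protein Pp2 (r = 0.988), heavy metal-associated isoprenylated plant protein 46 (0.985) and Protein EXORDIUM (0.982). The second of these averaged 38.8 FPKM with NaCl and at most 2.88 in another group. It reached the mean level required of candidates only through its NaCl libraries, so its likeness to ADC1-a was partly set by that filter. For ODC-a they were serine/threonine-protein kinase OXI1 (0.989), mitochondrial alkaline/neutral invertase A (0.987) and Cell number regulator 10 (0.987). For SAMDC-a they were exocyst complex component EXO70A1 (0.997), Ras-related protein RABA1f (0.997) and Phospholipase A1-Ibeta2 (0.9965). For SPDS1 they were Kinesin-like protein KIN-UB (0.976), 40S ribosomal protein S4 (0.964) and Expansin-A11 (0.962).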

How the data were processed

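RNA of rice roots was selected for poly-A and sequenced in 12 libraries, per the labels' protocols. The authors deposited a table of FPKM per unigene with its best protein hits. CASAVA 1.8, Bowtie2 and RSEM are named in the submitters' processing notes, with no role given, and how the transcripts were assembled is not stated in the sources used here.

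Members and lists were chosen by words in the descriptions, with earlier results of these data known. Named members had a group mean of at least 10 FPKM or a call. Each pathway list is shown by its called unigene of largest mean. Log2(FPKM + 1) of the 65836 unigenes averaging 1 FPKM or more was fitted with limma 3.58.1 in R 4.3.3 as 4 group means, with a mean-variance trend and two-sided tests. Benjamini-Hochberg adjustment covered all unigenes within each of 6 comparisons. The steps were tested on simulated data. Alternatives were another pseudocount (0.1), other filters, scalings and fits, and each library left out. Enzyme sums have no test. Gene positions and sequences were not used here.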

Additional observations from a re-analysis of the deposited data

Results flagged for a closer look

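The response to spermidine differed between roots with and without NaCl for 5 members other than ODC-c. The call was limma's interaction term with an adjusted p below 0.05, at which 6.78% of rice-hit unigenes were below 0 and 5.33% above. On the log2 scale the interaction was -1.499 for ODC-a (Cluster-52034.45460), ornithine decarboxylase. It was -0.8991 for ADC1-a (Cluster-52034.73530), arginine decarboxylase. For S-adenosylmethionine decarboxylase it was -1.884 for SAMDC-a (Cluster-52034.76799), -2.013 for SAMDC-c (Cluster-52034.83884) and -0.9944 for SAMDC-e (Cluster-52034.78396). For ODC-c (Cluster-52034.99278), ornithine decarboxylase, the value was -2.223. ODC-c was tested only through its high NaCl libraries, which are in this contrast, so the value is a description.

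A further unigene described as S-adenosylmethionine decarboxylase (Cluster-52034.54926) had its best hit in Handroanthus impetiginosus, a tree, and so was no member. It was listed at 0 in all 3 untreated libraries. Its mean was 3.37 FPKM with spermidine (0.11, 5.28 and 4.72) and 7.95 FPKM with spermidine plus NaCl (1.36, 15.25 and 7.24), and its NaCl libraries had 0.16, 0 and 0.13. The first library of each group with spermidine was the lowest of its group.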

How the results depend on the processing

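Leaving out ODC-c, 26 changes of named members were called, and 16 kept their call and direction under every alternative that gave a value and 0 reversed. Of 64 uncalled ones, 9 were called under some alternative. Members called with both treatments against untreated roots numbered 1. They were 2 at a filter of 5 FPKM and 2 with rice-hit unigenes only. With only the 2 groups in the fit there were 0, and with a library left out 1 to 2. Over all unigenes tested, the filter of 5 FPKM called 1365 higher and 1164 lower of 29508. Rice-hit unigenes only gave 929 and 863 of 41514, and the fit of 2 groups 413 and 977 of 65836. Against spermidine alone they numbered 2. They were 4 at a filter of 5 FPKM, 0 with only the 2 groups, and 0 to 2 with a library left out. They were 1 each with median-ratio scaling, quantile normalization, rice-hit unigenes only, the replicate block and no variance trend. Over all unigenes tested, the filter of 5 FPKM called 1528 higher and 1183 lower, and the fit of 2 groups 450 and 1085. Median-ratio scaling gave 1377 and 2945, and quantile normalization 2020 and 2660. Rice-hit unigenes only gave 950 and 832, the replicate block 1434 and 2567, and no variance trend 1160 and 2615. With only 2 groups in the fit, SAMDC-a lost its fall under NaCl with spermidine (limma adjusted p = 0.0578). With a pseudocount of 0.1, ODC-b lost its fall (limma adjusted p = 0.0621).

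Log2 ratios of summed FPKM moved as follows, by the alternatives' own scaling or choice of unigenes. For NaCl against untreated roots, ornithine decarboxylase went from 2.54 to 1.20 when unigenes of any hit were added. Median-ratio scaling and rescaling to rice-hit totals gave 0.10 and -0.14 for agmatine deiminase (-0.04 as reported), -0.033 and -0.27 for N-carbamoylputrescine amidase (-0.17; -0.20 with any hit), 1.08 and 0.84 for S-adenosylmethionine decarboxylase (0.94), and 0.23 and -0.010 for spermine synthase (0.09). For both treatments against NaCl, median-ratio scaling gave -0.12 for agmatine deiminase (0.06), 0.015 for N-carbamoylputrescine amidase (0.19), -0.021 for spermidine synthase (0.15) and -0.23 for spermine synthase (-0.05). Rice-hit totals gave 0.27 and 0.023 for the second and the last of these. The summing over any hit was chosen after seeing the data.

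Libraries of different groups share replicate numbers, and the labels do not say whether same-numbered libraries were handled together. Deviations of same-numbered libraries correlated between -0.109 and 0.147, those of other pairs between -0.100 and 0.098. Of the 12 libraries, 4 correlated best with their own number. The first library with both treatments correlated at 0.147, 0.104 and 0.077 with the first untreated, spermidine and NaCl libraries. The other pairs of first libraries lay between -0.051 and -0.002. A batch shared by replicate number cannot be read from these values. With the replicate block 9 members were called with NaCl and 8 with spermidine under NaCl, with ODC-c in both counts. Spermidine alone had 0, both treatments against untreated and spermidine-treated roots 1 and 1, and the interaction 5. Of all 65836 unigenes tested, this fit called 6388 higher and 7767 lower with NaCl. With spermidine under NaCl it called 5039 higher and 4661 lower. Spermidine alone had 1250 and 338, and the interaction 2136 and 3977. Both treatments had 1511 and 1844 against untreated roots, and 1434 and 2567 against spermidine. FPKM keeps no depth, so low members such as ODC-b and ODC-c have no counting error.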

Other observations

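Beside the members, 73 unigenes carried the same enzyme words without an Oryza hit, and their FPKM summed to between 39.5 and 79.7 in a library. One with the Swissprot name of S-adenosylmethionine decarboxylase (Cluster-52034.77044) had 16.6 to 20.2 FPKM in every library. One described as ornithine decarboxylase with its best hit in Atropa belladonna (Cluster-52034.58012) had 24.32, 6.86 and 5.21 FPKM in untreated roots, 3.43, 1.86 and 4.57 with spermidine, 15.25, 10.72 and 11.27 with NaCl, and 8.91, 0.49 and 4.44 with both. A spermidine synthase unigene with its best hit in the fern Marsilea (Cluster-26049.0) had 13.7 and 3.99 FPKM in the second and the third library with both treatments.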
